A study of Mus musculus with 2 samples.

Results

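The genes described here encode the MHC class II antigen-presentation machinery, measured in intestinal epithelial cells. The 7 members were named as a list of genes, with no measured value in the rule, and all 7 were found among the 32285 genes of the count tables. They were the chain genes H2-Aa, H2-Ab1 and H2-Eb1, the invariant chain gene Cd74, the peptide exchange genes H2-DMa and H2-DMb1, and the transcriptional coactivator gene Ciita. Single-cell RNA-seq had been run on 2 libraries of mouse intestinal epithelial cells, sorted as EpCAM+ and negative for the dead-cell dye 7-AAD. The study's results also describe the cells as CD45-negative, whereas its methods name only EpCAM and 7-AAD for the sort. One library came from wild-type littermates (WT) and the other from mice that overexpress MG53, the product of Trim72, throughout the body (MG53-TG). Mice of both genotypes had received 2.5% dextran sulfate sodium (DSS), a colitis-inducing agent, in drinking water, and cells were taken on day 7, so no library was free of DSS. The promoter and cell types that drive the transgene and the mouse ages are not given in the labels, which name the tissue as intestine. The study describes several mice per genotype for this experiment, but not how they were combined in the libraries. Each genotype had 1 library, and the tables were made with different Cell Ranger versions, so genotype, animals, library preparation and counting cannot be told apart, no replicate check exists, and no test was made. The intervals given are exact 95% intervals that cover counting error only.

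MHC class II molecules carry peptides from endosomes to the cell surface, where CD4+ T cells read them. An alpha and a beta chain pair in the endoplasmic reticulum, and the invariant chain, CD74, fills the groove and guides the dimer to endosomes. There the H2-DM dimer exchanges the last fragment of the invariant chain for peptide. Dendritic cells, macrophages and B cells express these genes constitutively, whereas other cells express them mainly after interferon gamma has induced CIITA, which acts at a shared promoter element called the SXY module. Intestinal epithelial cells are among the non-professional cells known to carry class II, which is described in small intestinal enterocytes and in Lgr5+ stem cells.

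The chain genes lie close together on chromosome 17 of GRCm38 (GENCODE annotation, all protein-coding). H2-Ab1 (ENSMUSG00000073421) spans 34257689 to 34269419 on the plus strand, H2-Aa (ENSMUSG00000036594) spans 34282744 to 34287823 on the minus strand, and H2-Eb1 (ENSMUSG00000060586) spans 34305867 to 34316674 on the plus strand. H2-DMa (ENSMUSG00000037649) and H2-DMb1 (ENSMUSG00000079547) lie in the same region, on the plus strand, at 34119541 to 34139101 and at 34153072 to 34160230. Ciita (ENSMUSG00000022504) lies on chromosome 16 at 10480059 to 10528418 on the plus strand. An exon of H2-DMa overlaps an exon of Brd2, and an exon of Ciita overlaps one of Dexi, each on the opposite strand. Cell Ranger, named in the file headers, counts only sense reads by default, but the settings used are not given in the sources used here, so part of the H2-DMa and Ciita counts could belong to those neighbours. H2-DMb1 has a near-identical neighbour, H2-DMb2, which was counted with 2 UMIs in WT and 0 in MG53-TG named epithelial cells, against 3945 and 3491 for H2-DMb1. No annotated gene overlapped H2-Aa or H2-Ab1.

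Promoters are shown for the 3 members in which a search for motifs of the SXY module found a match, as the 130 bases before the RefSeq start site (GRCm38.p6), each on its gene's strand. Capitals mark matches to 2 core motifs of the SXY module, searched on both strands: the X box core, spelled as AG, any 2 bases, AC, any base and GATG, and the Y box core CTGATTGG, which do not overlap here.
H2-Aa, chr17:34287824-34287953, minus strand: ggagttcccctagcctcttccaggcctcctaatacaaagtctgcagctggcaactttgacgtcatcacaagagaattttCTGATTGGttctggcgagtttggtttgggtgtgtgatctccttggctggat
H2-Eb1, chr17:34305737-34305866, plus strand: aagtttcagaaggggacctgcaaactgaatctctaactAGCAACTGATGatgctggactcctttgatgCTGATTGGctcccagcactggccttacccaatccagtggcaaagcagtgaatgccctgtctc
H2-DMb1, chr17:34153061-34153190, plus strand: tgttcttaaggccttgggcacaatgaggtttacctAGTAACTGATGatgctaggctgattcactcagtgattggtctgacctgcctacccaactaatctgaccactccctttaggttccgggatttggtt

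The X box core began 92 bases before the start in H2-Eb1 and 95 bases before it in H2-DMb1. The Y box core began 51 bases before the start in H2-Aa and 62 in H2-Eb1, where 19 bases separated it from the X box. Of 32851 RefSeq promoter windows, 0.968% held the X core, 4.10% the Y core and 0.0304%, or 10 promoters, both. The windows searched shared a common length, began further upstream than the stretches shown and reached past the start site. Neither H2-DMa promoter in the RefSeq table held an exact match, and promoters of H2-Ab1, Cd74 and Ciita were not analysed here. A match describes the letters of the window and does not show a bound site.

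After filtering, 6963 WT and 4941 MG53-TG cells were kept, with medians of 14035 and 17950 unique molecular identifiers (UMIs) per cell. A UMI tags the 3′ end of 1 transcript, so CPM, a gene's UMIs scaled to a common total of UMIs, do not grow with gene length. How well transcripts of different genes are captured and counted was not measured, so comparisons between genes carry that limit. Barcodes above the mitochondrial limit made up 33.7% of WT and 46.1% of MG53-TG barcodes of sufficient depth. Cells were clustered without the class II genes, and 5639 WT and 4303 MG53-TG cells in clusters named from epithelial markers, with no UMI of the leukocyte gene Ptprc, were summed by type. The named cells of the libraries shared 6 barcodes. Trim72 was at 0.604 CPM (0.462 to 0.776) in the WT and 49.9 CPM (48.4 to 51.4) in the MG53-TG library, which matched the labels.

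Class II transcripts were highest in absorptive and stem-like cells and low in secretory cells. The class II sum, defined as the UMIs of H2-Aa, H2-Ab1, H2-Eb1 and Cd74, was highest in the enterocyte-like cells of both libraries among the named types, at 2824 CPM in WT against 2688 CPM in MG53-TG. The stem-like cells, with 1318 and 1447 CPM, and the early absorptive-like cells, with 1371 and 1318 CPM, came next, and their order was opposite in the libraries. Secretory progenitor-like cells held 496 CPM in WT against 515 CPM in MG53-TG, and enteroendocrine-like cells 409 and 357 CPM. Goblet-like cells, which make mucus, held 222 and 270 CPM. Paneth-like cells, which secrete antimicrobial peptides at the crypt base, held 168 and 186 CPM, and tuft-like cells 122 (100.2 to 147) and 153 (132 to 175) CPM. Enterocyte-like cells thus carried 2.14-fold (log2 1.10, 1.08 to 1.12) the stem-like level in WT and 1.86-fold (log2 0.89, 0.87 to 0.92) in MG53-TG.

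**Figure D1:**
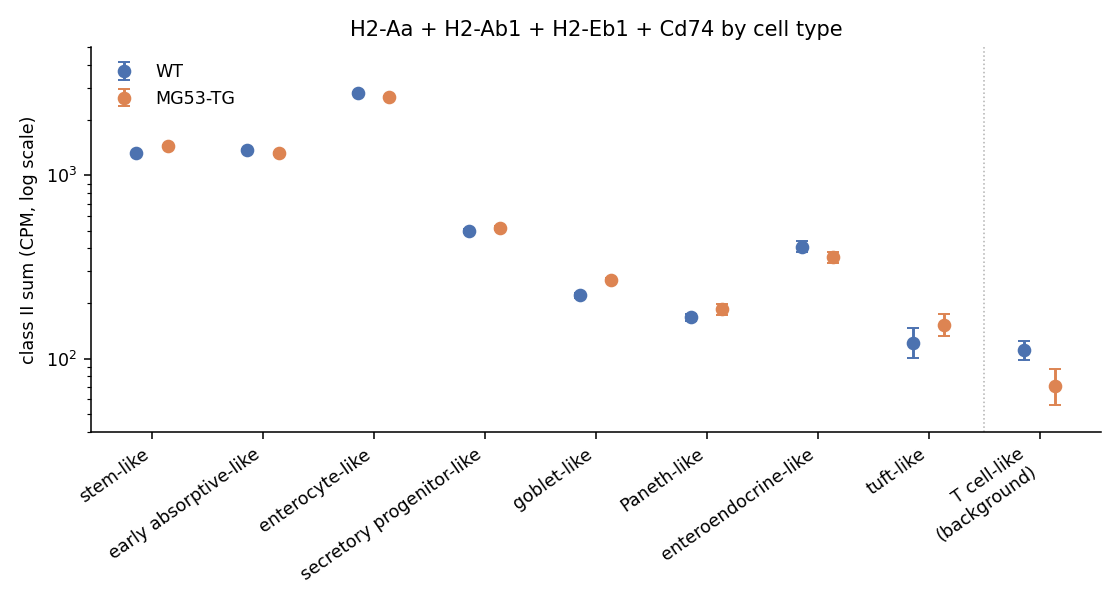
Class II sum (H2-Aa, H2-Ab1, H2-Eb1 and Cd74) in CPM, on a log axis, in each epithelial cell type and in T cell-like cells, with 1 point per library and exact 95% Poisson intervals. Enterocyte-like cells are highest, at 2824 and 2688 CPM, and the T cell-like background is at 111 and 70.5 CPM.

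T cell-like cells, the type expected to lack these genes in the mouse, served as the background and held 111 CPM (98.4 to 125) in WT and 70.5 CPM (56.1 to 87.6) in MG53-TG, at median depths of 2692 and 3420 UMIs. Tuft-like cells lay near this level in WT, where the intervals overlapped, and above it in MG53-TG, where 1 of the 100 cells held 38.8% of their class II UMIs. Without the cell that held most class II UMIs in each library, tuft-like cells were at 88.3 CPM (69.4 to 111) in WT and 97.3 CPM (81.1 to 116) in MG53-TG, and the MG53-TG interval overlapped the T cell-like one. WT barcodes with fewer than 100 UMIs, which hold RNA free in the suspension, gave 1314 CPM; the MG53-TG table starts at 500 UMIs and holds no such barcodes. Antigen-presenting cell-like clusters, with 37 WT and 12 MG53-TG cells, held 19956 and 9157 CPM. Their 17 listed markers together came to 3.05 CPM in WT against 2.71 CPM in MG53-TG named epithelial cells, mostly from Cd79b, and Ccr7, Fcgr1 and Cd209a were among those at 0 in both. In enterocyte-like cells the same list summed to 0.372 and 0.469 CPM, from 5 and 7 UMIs, and enterocyte-like cells above their own median class II level had 0 UMIs of it in WT and 3 in MG53-TG (0.480 CPM, against 0.461 CPM at or below the median). The list was highest in enteroendocrine-like cells, at 17.5 and 9.31 CPM, and tuft-like cells, at 23.7 and 22.2 CPM. These sums rested mostly on C1qa in enteroendocrine-like cells (31 of 39 and 12 of 19 UMIs) and on Cd79b in tuft-like cells (18 of 21 and 28 of 30). In Paneth-like cells Lyz2 gave 33 of 39 and 20 of 20. Leaving out cells with any listed marker, as done below, therefore also turned on these single genes. T cell markers came to 13.8 CPM in WT against 5.44 CPM in MG53-TG named epithelial cells, and their part in the differences between the libraries was not tested.

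The share of cells with a class II UMI followed the same order when every cell was thinned to the same number of UMIs, the minimum for keeping a cell (the shallowest kept cells had 1355 in WT and 1356 in MG53-TG). After thinning, 89.8% of WT and 86.9% of MG53-TG enterocyte-like cells held at least 1 such UMI, and so did 75.9% of stem-like cells in either library. In goblet-like cells the shares were 23.9% and 26.7%, above the 13.9% and 8.83% of T cell-like cells. Paneth-like cells, at 16.0% and 14.3%, and tuft-like cells, at 11.5% and 14.0%, were close to or below the T cell-like share in WT, which is background, and above it in MG53-TG. Over all named epithelial cells 55.7% held such a UMI in WT against 49.8% in MG53-TG, whereas without thinning it was 89.96% and 91.1%, and the order of the libraries turned.

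Within a type, clusters ranged more widely than the libraries did within a cluster, except for the secretory progenitor-like clusters of MG53-TG, which lay between 491 and 564 CPM against 414 to 603 CPM in WT. The highest named cluster was an enterocyte-like cluster led by Plb1, Enpp7 and Slc34a2, at 4673 CPM in WT and 4753 in MG53-TG. Enterocyte-like cells led by Apoc3 and Lct held 3922 and 3585 CPM, and those led by Reg1 and S100g held 1963 and 1736 CPM. Early absorptive-like cells led by the ileal bile acid-binding protein gene Fabp6 held 2525 and 2639 CPM, between those enterocyte-like clusters and above the 1277 and 1231 CPM or the 1151 and 1103 CPM of the other early absorptive-like clusters. An unnamed epithelial cluster of 263 WT and 97 MG53-TG cells, led by Saa1 and the ileal bile acid transporter gene Slc10a2, was higher than all of these at 5206 and 5255 CPM. Enterocyte markers led among the listed types there, but none was among its top 10 genes and its cells were shallow, at 0.243 of the median UMIs of their libraries, so it stayed unnamed and out of the sums over named cells. The cluster led by Plb1 also had no enterocyte marker among its top 10 genes and was shallow, at 0.346, which lay just above the depth limit for naming. Among stem-like cells, the cluster led by Olfm4 held 1601 and 1739 CPM and the cycling cluster led by Top2a and Ube2c held 1162 and 1294 CPM.

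**Figure D2:**
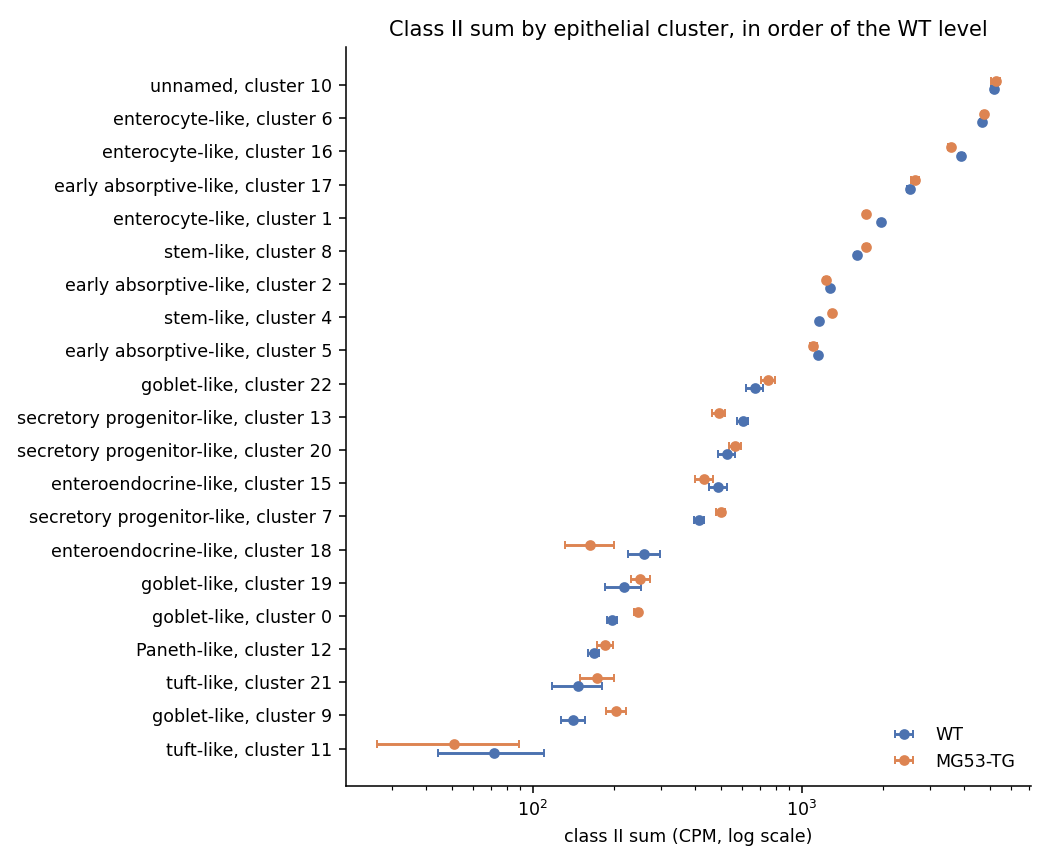
Class II sum in CPM in each epithelial cluster, on a log axis and in order of the WT level, with WT and MG53-TG as points with exact 95% Poisson intervals. The unnamed cluster 10, led by Saa1 and Slc10a2, is highest at 5206 and 5255 CPM, and the tuft-like cluster 11 is lowest at 72.1 and 51.0 CPM.

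Cd74 was the most abundant member in every named epithelial type but the goblet-like one. Cd74 (ENSMUSG00000024610), the invariant chain gene on the plus strand of chromosome 18 at 60803848 to 60812652, held 1682 CPM in WT against 1551 CPM in MG53-TG enterocyte-like cells, 833 and 851 CPM in stem-like cells and 892 and 835 CPM in early absorptive-like cells. In secretory progenitor-like cells it held 297 and 281 CPM, in enteroendocrine-like cells 233 and 178 CPM, in Paneth-like cells 102 and 116 CPM, and in goblet-like cells 89.8 and 102 CPM. Its level in T cell-like cells was 51.1 CPM in WT against 28.4 CPM in MG53-TG, and the tuft-like values of 61.1 and 68.1 CPM lay nearest to it.

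H2-Ab1, the I-A beta chain, had the narrowest range of the chain genes. Enterocyte-like cells held 533 and 544 CPM of it in WT and MG53-TG, stem-like cells 223 and 275 CPM, and early absorptive-like cells 222 and 245 CPM. Goblet-like cells still held 111 and 141 CPM, close to the 123 and 150 CPM of secretory progenitor-like cells and the 113 and 112 CPM of enteroendocrine-like cells, and well above the 22.0 and 19.8 CPM of T cell-like cells. Only Paneth-like (33.0 and 38.4 CPM) and tuft-like cells (36.2 and 48.1 CPM) fell under 100 CPM among the named types.

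H2-Aa, the I-A alpha chain that pairs with the H2-Ab1 product, spread far more widely. Its level was 369 CPM in WT against 366 CPM in MG53-TG enterocyte-like cells, 122 and 154 CPM in stem-like cells, and 129 and 121 CPM in early absorptive-like cells. In secretory progenitor-like cells it was 39.5 and 43.0 CPM and in enteroendocrine-like cells 35.8 and 40.7 CPM. In goblet-like cells it dropped to 12.4 and 16.1 CPM, against 18.3 and 9.46 CPM in T cell-like cells, so the WT goblet-like value was not above background. H2-Eb1, the I-E beta chain, followed H2-Aa rather than H2-Ab1, with 241 and 227 CPM in enterocyte-like, 140 and 167 CPM in stem-like and 9.55 and 11.2 CPM in goblet-like cells, the last below the 19.9 and 12.9 CPM of T cell-like cells.

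The H2-DM genes, whose products load peptide, differed from each other in the same way. H2-DMb1 was at 84.8 and 83.5 CPM in enterocyte-like, 36.9 and 37.5 CPM in stem-like and 20.8 and 28 CPM in goblet-like cells. It was lower in enteroendocrine-like (11.6 and 10.8 CPM), tuft-like (9.04 and 9.63 CPM) and Paneth-like cells (7.00 and 5.79 CPM). H2-DMa was at 89.5 and 72.4 CPM in enterocyte-like, 59.1 and 60.8 CPM in stem-like and 5.55 and 7.84 CPM in goblet-like cells. T cell-like cells held 50.7 and 46.5 CPM of H2-DMa but only 8.72 and 7.74 CPM of H2-DMb1. Their H2-DMa to Cd74 ratio of 0.992 in WT and 1.64 in MG53-TG stood apart from the 0.0476 of WT barcodes under 100 UMIs, so for H2-DMa these cells were not a measure of free RNA.

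Ciita, the coactivator of the whole set, was the least abundant member in every named epithelial type. It held 26.2 and 26.0 CPM in WT and MG53-TG enterocyte-like cells, 13.3 and 11 CPM in early absorptive-like cells and 10.5 and 11.2 CPM in stem-like cells. In goblet-like cells it held 1.77 and 1.86 CPM, from 31 and 51 UMIs, and no UMI was found in tuft-like cells of either library. T cell-like cells held 13.3 and 12.0 CPM of Ciita, close to or above the early absorptive-like and stem-like values. Whether this came from free RNA was not measured, so those values cannot be placed above background.

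**Figure D3:**
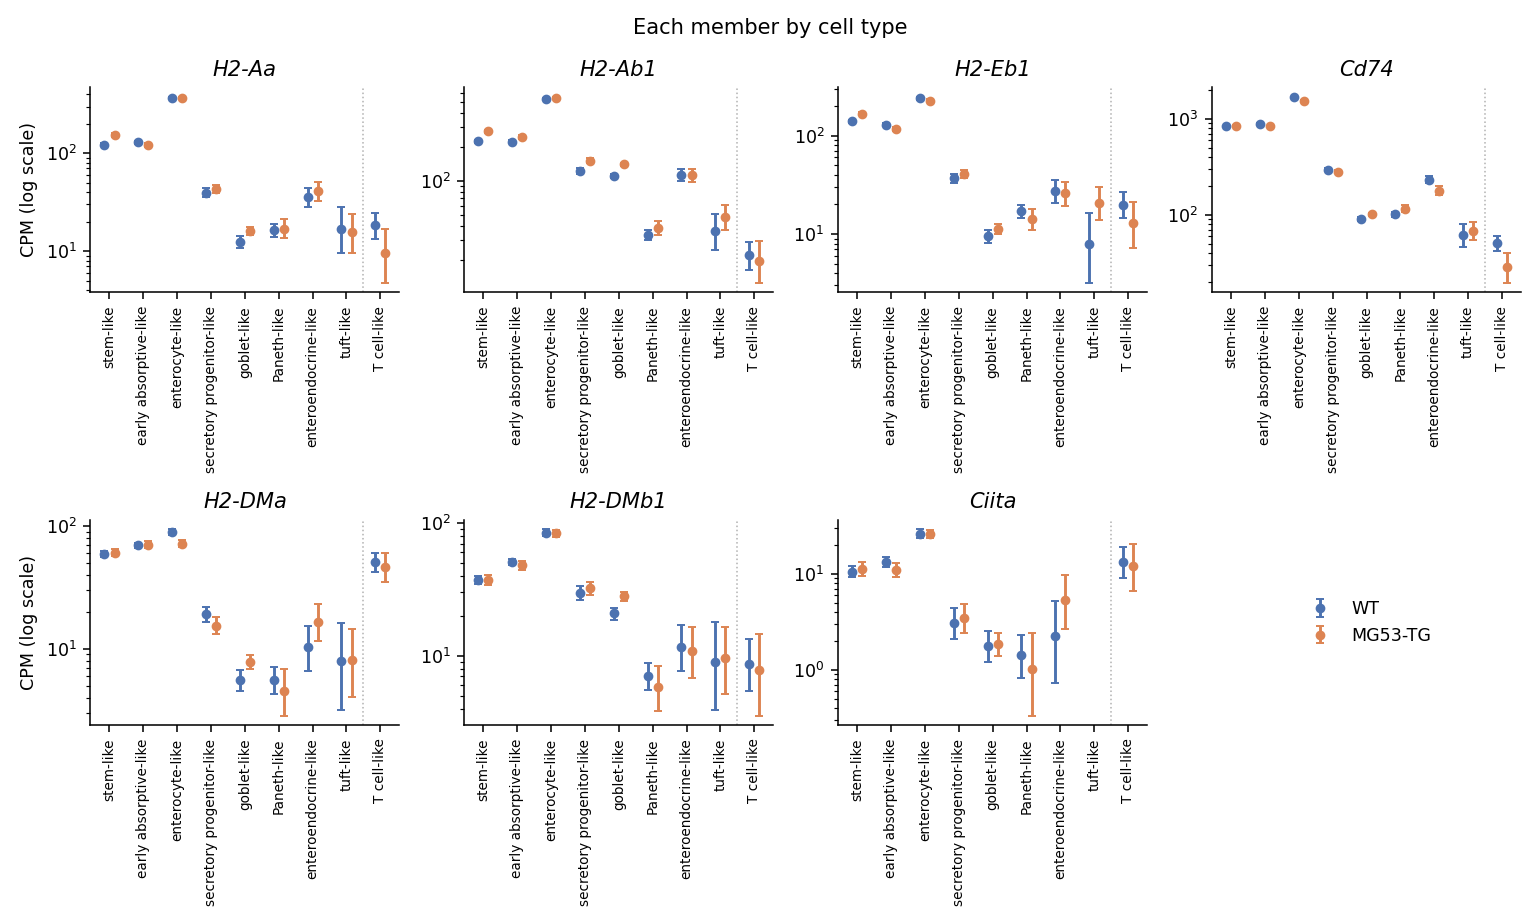
CPM of each of the 7 members, on log axes, in each epithelial cell type and in T cell-like cells, with 1 point per library and exact 95% Poisson intervals. H2-Aa and H2-Eb1 fall to 16.1 CPM or less in goblet-like cells, where H2-Ab1 stays at 111 and 141 CPM, and Ciita has no point in tuft-like cells because no UMI was counted.

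Set against stem-like cells of the same library, all 7 members were higher in enterocyte-like cells and lower in goblet-like cells. In enterocyte-like cells 5 of 7 members were past 2-fold higher in WT and 3 of 7 in MG53-TG, where 15.3% and 16.5% of all genes with at least 30 UMIs were. The log2 differences ran from 0.60 for H2-DMa to 1.59 for H2-Aa in WT and from 0.25 for H2-DMa to 1.25 for H2-Aa in MG53-TG, with medians of 1.20 and 0.98 against -0.38 and -0.33 over all genes. H2-Ab1 stood at 1.25 and 0.98, Cd74 at 1.01 and 0.87, H2-Eb1 at 0.79 and 0.44, H2-DMb1 at 1.20 and 1.16, and Ciita at 1.32 and 1.21. With a mitochondrial limit of 50% the counts past 2-fold were 3 of 7 in WT and 1 of 7 in MG53-TG, where 16.6% and 17.9% of all genes were, and 5 of 7 were above 0 in MG53-TG.

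In goblet-like cells 6 of 7 members were past 2-fold lower in WT and 5 of 7 in MG53-TG, where 28.7% and 27.2% of all genes were. H2-Eb1 stood at -3.87 and -3.90 on the log2 scale, H2-DMa at -3.41 and -2.96, H2-Aa at -3.31 and -3.25, Cd74 at -3.21 and -3.07, and Ciita at -2.56 and -2.59. H2-Ab1, at -1.01 and -0.97, and H2-DMb1, at -0.83 and -0.42, were far less reduced and formed a group of their own. The members' medians of -3.21 and -2.95 stood against -0.32 and -0.27 over all genes.

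The uneven fall left goblet-like cells with a beta chain transcript and little of its alpha partner. H2-Aa over H2-Ab1 was 0.112 (0.0964 to 0.128) in WT and 0.115 (0.104 to 0.127) in MG53-TG goblet-like cells. The same ratio was 0.692 and 0.673 in enterocyte-like, 0.548 and 0.559 in stem-like, 0.581 and 0.492 in early absorptive-like, 0.492 and 0.441 in Paneth-like, 0.317 and 0.362 in enteroendocrine-like and 0.321 and 0.287 in secretory progenitor-like cells. It was 1.06 and 0.987 in antigen-presenting cell-like cells and 0.620 (0.572 to 0.671) in WT barcodes under 100 UMIs. The goblet-like intervals thus lay below those of every other cell type with a value, tuft-like cells included (0.236 to 0.891 in WT and 0.188 to 0.535 in MG53-TG), and below that of free RNA.

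Other pairs were also lower in goblet-like cells than in most types, although the WT intervals of H2-Eb1 over H2-Ab1 and of H2-DMa over H2-DMb1 overlapped those of tuft-like cells. H2-Eb1 over H2-Ab1 was 0.0862 and 0.0798 in goblet-like cells, against 0.452 and 0.417 in enterocyte-like and 0.625 and 0.608 in stem-like cells. H2-DMa over H2-DMb1 was 0.266 and 0.280 in goblet-like cells, against 1.06 and 0.866 in enterocyte-like, 1.60 and 1.62 in stem-like and 0.644 and 0.478 in secretory progenitor-like cells. Cd74 over H2-Ab1 was 0.810 and 0.722 in goblet-like cells, the only named type in which it was below 1, against 3.16 and 2.85 in enterocyte-like and 3.73 and 3.09 in stem-like cells. With predicted doublets kept, H2-Aa over H2-Ab1 in goblet-like cells was 0.211 in WT and 0.168 in MG53-TG, still under the 0.321 and 0.287 of secretory progenitor-like cells without them.

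**Figure D4:**
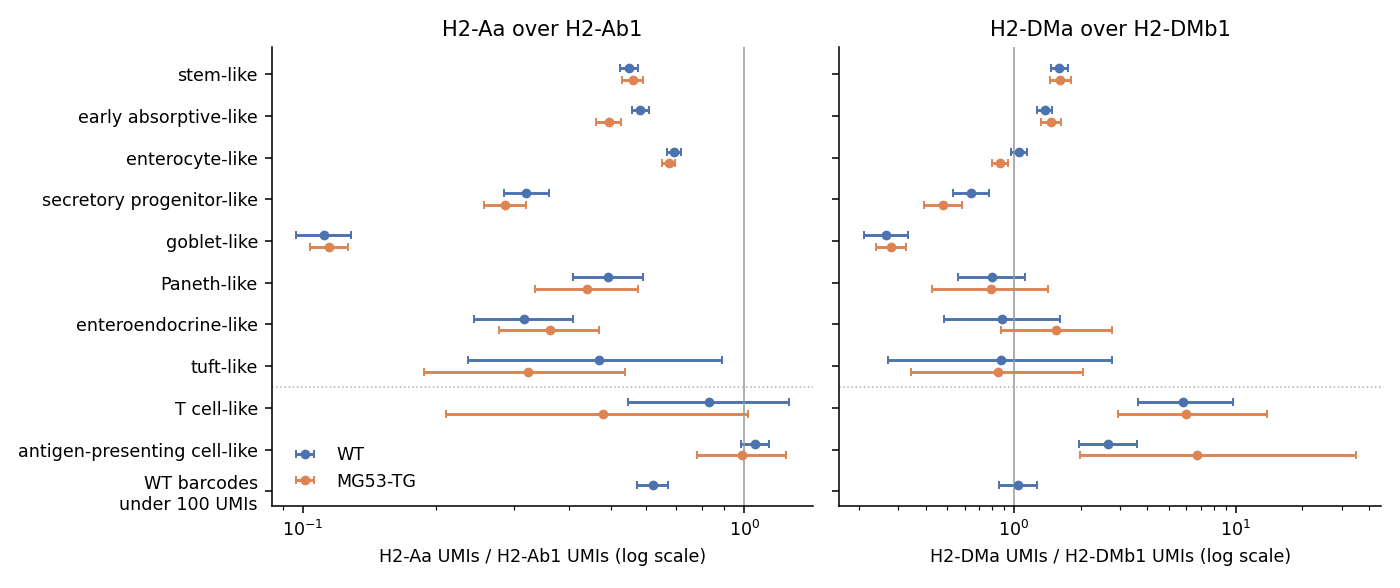
UMI ratios of H2-Aa over H2-Ab1 (left) and H2-DMa over H2-DMb1 (right), on log axes, by cell type and library and in WT barcodes under 100 UMIs, with exact 95% intervals. Goblet-like cells have the lowest H2-Aa over H2-Ab1 ratio, at 0.112 in WT and 0.115 in MG53-TG, and the lowest H2-DMa over H2-DMb1 ratio, at 0.266 and 0.280.

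The pattern was found in some goblet-like clusters and not in all. The largest, led by Scin, Rep15 and Agr2, held 109 CPM of H2-Ab1 and 9.20 CPM of H2-Aa in WT, and 138 and 13.9 CPM in MG53-TG. The cluster led by Ido1 and Zg16 held 94.8 CPM of H2-Ab1 and 7.56 CPM of H2-Aa in WT, and 121 and 11.8 CPM in MG53-TG. A further cluster, in which enterocyte genes such as Slc5a12 and Pck1 stood beside Retnlb among the leading genes, had H2-Aa and H2-Ab1 in about the proportion of secretory progenitor-like cells, with 164 CPM of H2-Ab1 and 54.1 CPM of H2-Aa in WT and 212 and 57.0 CPM in MG53-TG.

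One goblet-like cluster, of 53 WT and 131 MG53-TG cells, was led by interferon-induced genes such as Isg15, Ifit1 and Rsad2. Its class II sum differed little from that of the other goblet-like cells, at 218 against 223 CPM in WT (log2 -0.03, -0.26 to 0.19) and 251 against 272 CPM in MG53-TG (log2 -0.11, -0.23 to 0.01). The interferon-induced GTPase gene Gbp7 was higher there by 2.13 and 1.86 on the log2 scale. Irf1, which acts at the interferon gamma-responsive Ciita promoter, differed by 0.37 (-0.01 to 0.72) in WT and 0.07 (-0.15 to 0.28) in MG53-TG. Of the members, H2-DMb1 differed by 0.23 (-0.52 to 0.89) and 0.60 (0.28 to 0.90), H2-DMa by 1.12 (-0.05 to 2.11) and 0.75 (0.14 to 1.31), and Cd74 by -0.35 (-0.76 to 0.04) and -0.37 (-0.59 to -0.16). Cd74 stood at 71.3 and 80.2 CPM there and at 415 and 455 CPM in the cluster with Slc5a12 and Pck1. In the cluster led by Scin it was at 70.9 and 82.9 CPM, and in that led by Ido1 at 36.3 and 67.2 CPM. The cluster was formed from these cells' expression, so the interferon genes that lead it are no finding, whereas the members took no part in the clustering.

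Class II UMIs were spread over most absorptive cells and were most concentrated in the Paneth-like, enteroendocrine-like and tuft-like types. The median enterocyte-like cell held 2842 CPM in WT against 2477 CPM in MG53-TG, the range from the 10th to the 90th percentile was 758 to 6289 and 579 to 6196 CPM, and 1.93% and 1.67% of these cells had no class II UMI. Stem-like cells were the most even, with medians of 1213 and 1314 CPM and 27.4% and 27.3% of their class II UMIs in the top 10% of cells. In Paneth-like cells the median was 36.3 and 37.6 CPM, and the top 10% of cells held 67.3% and 73.7% of the UMIs. That share was 65.2% and 61.0% in enteroendocrine-like and 70.4% and 63.1% in tuft-like cells. In goblet-like cells it was 41.2% and 38.7%, and in secretory progenitor-like cells 42.8% and 40.7%, nearer to the 32.9% and 32.0% of enterocyte-like cells. These shares ranked cells by UMIs and not by CPM, so depth and low counts enter them. Tuft-like cells held 108 class II UMIs in WT and 206 in MG53-TG. Without thinning, no class II UMI was found in 18.5% of WT and 11.6% of MG53-TG goblet-like cells.

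Members were found together in single cells, counted without thinning and with no comparison matched for depth. Of WT enterocyte-like cells with Cd74, 91.7% also had H2-Ab1, 78.6% H2-Aa, 70.1% H2-Eb1, 53.5% H2-DMb1, 52.0% H2-DMa and 26.4% Ciita. In MG53-TG these shares were 93.8%, 81.3%, 74.3%, 61.1%, 53.5% and 31.9% in the same order. Stem-like cells with Cd74 had H2-Ab1 in 91.8% and 92.6% of cells, and H2-Eb1 in 82.1% and 87.1%. The 25 WT enterocyte-like cells without Cd74 had a median of 2946 UMIs against 12130.5 in those with it, and H2-Ab1 was found in 20% and H2-Aa in 4% of them. The 20 MG53-TG cells without Cd74 had a median of 11610 UMIs against 17535, with H2-Ab1 in 15% and H2-Aa in 5% of them.

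Between the libraries the class II level over all named epithelial cells changed little, and no member passed 2-fold in that sum. Over all named epithelial cells the class II sum was 1105 CPM in WT against 1044 CPM in MG53-TG (log2 -0.08, -0.10 to -0.07). By member, H2-Ab1 was at 210.0 and 239 CPM (log2 0.19, 0.16 to 0.22), H2-Aa at 115 and 117 CPM (0.02, -0.02 to 0.06) and H2-DMb1 at 39.1 and 40.5 CPM (0.05, -0.01 to 0.12). Those lower in MG53-TG were H2-Eb1, at 101 and 91.9 CPM (-0.14, -0.18 to -0.09), Cd74, at 679 and 596 CPM (-0.19, -0.21 to -0.17), H2-DMa, at 45.2 and 37.1 CPM (-0.29, -0.35 to -0.22), and Ciita, at 9.75 and 8.98 CPM (-0.12, -0.26 to 0.02). With types weighted equally Cd74 stood at -0.0728, H2-DMa at -0.0578 and Ciita at 0.0356, and at a mitochondrial limit of 50% Cd74 stood at -0.0385 and Ciita at 0.23 (0.12 to 0.34). Thus 0 of 7 members were past 2-fold in either direction, where 1.33% of 14469 genes were higher and 0.822% lower, and the members' median of -0.12 stood against 0.08 over all genes.

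The sum over all named cells was lower in MG53-TG and the sums over 3 broad classes were higher. Stem-like cells held 1318 CPM in WT and 1447 in MG53-TG (log2 0.14, 0.11 to 0.16), absorptive-like cells 1890 and 2072 CPM (0.13, 0.12 to 0.15), and secretory-like cells 280.0 and 315 CPM (0.17, 0.14 to 0.21). Within the absorptive-like class both types were lower in MG53-TG, with log2 ratios of -0.06 (-0.08 to -0.03) in early absorptive-like cells and -0.07 (-0.09 to -0.05) in enterocyte-like cells. The enterocyte-like cells, the higher of the pair, outnumbered the early absorptive-like cells in MG53-TG, with 837 against 500 cells, and not in WT, with 985 against 1256. At a mitochondrial limit of 50% they outnumbered them in both libraries, with 2876 against 995 cells in WT and 3381 against 352 in MG53-TG. With median-of-ratios scaling the stem-like difference was 0.05 (0.03 to 0.08). Goblet-like cells, low in class II, made up 22.9% of WT and 37.0% of MG53-TG named cells, whereas stem-like cells made up 16.3% and 10.8% and early absorptive-like cells 22.3% and 11.6%. Weighting the types equally gave a log2 ratio of 0.000445. Enterocyte-like cells supplied 34.0% of the class II UMIs in WT and 44.6% in MG53-TG, stem-like cells 25.8% and 21.5%, early absorptive-like cells 29.7% and 17.9%, and goblet-like cells 3.48% and 8.22%. At the 50% limit enterocyte-like cells made up 37.2% and 49.7% of the named cells and supplied 45.0% and 61.2% of the class II UMIs, while goblet-like cells made up 14.8% and 19.8% of the cells.

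Within types the members did not all go the same way. In stem-like cells the 3 chain genes were higher in MG53-TG, with H2-Aa at 0.33 (0.25 to 0.41), H2-Ab1 at 0.30 (0.24 to 0.36) and H2-Eb1 at 0.26 (0.18 to 0.34). The intervals of the other 4 held 0, with Cd74 at 0.03 (-0.00 to 0.07), H2-DMa at 0.04 (-0.09 to 0.17), H2-DMb1 at 0.02 (-0.14 to 0.18) and Ciita at 0.10 (-0.21 to 0.40). The median of the 7 was 0.10 against 0.04 over all genes, and with median-of-ratios scaling Cd74, H2-DMa and H2-DMb1 were below 0. All 7 were above 0 in goblet-like cells (median 0.35 against 0.06), with H2-DMb1 at 0.43 (0.25 to 0.61), H2-Ab1 at 0.35 (0.27 to 0.42) and H2-Aa at 0.39 (0.15 to 0.63), and Ciita, with few UMIs, at 0.07 (-0.60 to 0.76). The H2-Eb1 interval also held 0 there, at 0.23 (-0.04 to 0.51). T cell markers went from 29.1 CPM in WT to 5.10 CPM in MG53-TG in these goblet-like cells, with 4 of 4 past 2-fold lower where 0.756% of all genes were, and their part in the difference was not tested. In enterocyte-like cells 1 of 7, H2-Ab1, was above 0 (0.03, -0.02 to 0.08), and H2-DMa stood lowest at -0.31 (-0.43 to -0.19). H2-Ab1 was above 0 in every named type but enteroendocrine-like cells (-0.01, -0.27 to 0.25).

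The class II sum differed by 0.28 (0.22 to 0.33) in goblet-like, -0.07 (-0.09 to -0.05) in enterocyte-like, 0.14 (0.02 to 0.26) in Paneth-like and -0.20 (-0.34 to -0.05) in enteroendocrine-like cells. The enteroendocrine-like value was -0.0471 (-0.21 to 0.11) without cells holding any antigen-presenting or T cell marker, -0.0441 (-0.19 to 0.10) at a UMI minimum of 500 and -0.36 (-0.48 to -0.24) with predicted doublets kept. The Paneth-like value rested on 1 MG53-TG cell that held 24.8% of the class II UMIs of its type, and turned to -0.17 (-0.30 to -0.04) without the cell of each library that held most of them. It also turned to -0.0767 (-0.19 to 0.03) with Ptprc-positive cells kept and to -0.43 (-0.61 to -0.26) without cells holding any antigen-presenting or T cell marker. The goblet-like difference turned to -0.06, from 372 and 356 CPM, with predicted doublets kept. Tuft-like cells differed by 0.32 (-0.02 to 0.67), but the Ptprc rule had removed 62.3% and 64.9% of them, and with those cells kept the difference was -0.24 (-0.46 to -0.01). It was 0.88 (0.47 to 1.31) without cells holding any antigen-presenting or T cell marker, and -0.26 (-0.40 to -0.11), from 484 and 405 CPM, with predicted doublets kept. H2-Eb1 was past 2-fold in tuft-like cells, where 3.24% of all genes were past 2-fold higher, at 7.91 CPM in WT against 20.7 CPM in MG53-TG (log2 1.39, 0.16 to 2.83). It rested on 7 and 28 UMIs, and with the Ptprc-positive cells kept its difference was 0.27, with an interval that held 0. Among early absorptive-like clusters the differences were -0.05 in that led by Cyp4a10, -0.06 in that led by Gsdmc4 and Gsdmc2, and 0.06 in that led by Fabp6. Among secretory progenitor-like clusters they were -0.30 in that led by Agr2 and Creb3l1, 0.27 in that led by Rnase1 and Retnlb, and 0.10 in the cycling one. The cluster led by Rnase1 rested on 7 progenitor markers, but none of them was among its top 10 genes, which held the Paneth markers Mmp7 and Defa17 and the goblet marker Ccl9. In the same way, the cluster led by Cyp4a10 rested on 6 early absorptive markers, none among its top 10 genes, which held the enterocyte marker Fabp1 and the colonocyte marker Car4.

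**Figure D5:**
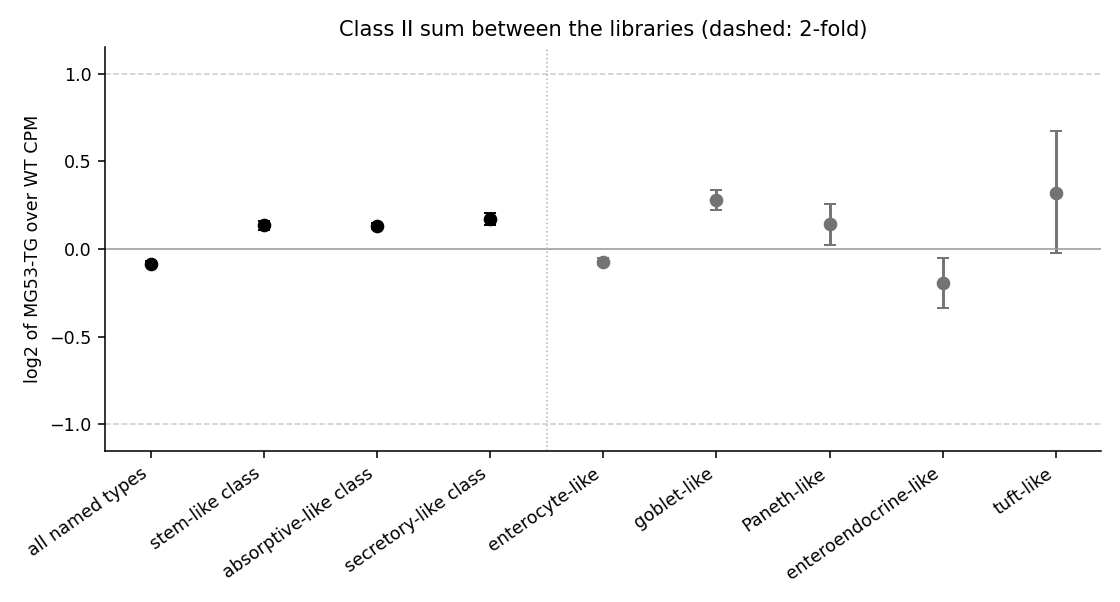
Log2 ratio of MG53-TG to WT CPM for the class II sum in all named types, in the stem-like, absorptive-like and secretory-like classes and in 5 types, with exact 95% intervals that cover counting error only and dashed lines at 2-fold. All named types together are at -0.08, stem-like cells at 0.14, enterocyte-like cells at -0.07 and goblet-like cells at 0.28.

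Some genes of the interferon gamma pathway, which induces Ciita, were higher in the MG53-TG library over all named epithelial cells. Of 16 listed genes, 15 had enough UMIs, all 15 were above 0 and 4 were past 2-fold higher, where 1.33% of all genes were, with a median log2 of 0.47 against 0.08 over all genes. With types weighted equally, a setting chosen after seeing the data, 1 of 15 was past 2-fold higher and 12 were above 0, with a median of 0.18 against 0.04 over all genes. Iigp1, an immunity-related GTPase gene, stood at 2.40 (1.89 to 2.94), the chemokine gene Cxcl9 at 1.40 (0.61 to 2.24), and the guanylate-binding protein genes Gbp7 and Gbp3 at 1.16 (1.01 to 1.30) and 1.14 (0.79 to 1.5). Part of these UMIs came from the interferon-led goblet-like cluster, of 53 WT and 131 MG53-TG cells, which held 67 of the 95 Iigp1 UMIs and 54 of the 124 Gbp3 UMIs of MG53-TG goblet-like cells. Irf1 stood at 0.32 (0.27 to 0.38) and the receptor genes Ifngr1 and Ifngr2 at 0.22 and 0.10. T cell markers moved the other way, with 8 of 9 past 2-fold lower in MG53-TG named epithelial cells, where 0.822% of all genes were, and their part in these values was not tested.

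By type, 2 of 11 interferon gamma genes were past 2-fold higher in MG53-TG enterocyte-like cells, where 0.959% of all genes were, and all 11 were above 0 (median 0.27). In goblet-like cells 2 of 15 were, where 0.582% of all genes were, and 14 were above 0 (median 0.19). In stem-like cells 0 of 10 were, where 0.857% of all genes were, and 7 were above 0 (median 0.04).

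The pathway and the members parted in goblet-like cells and not in enterocyte-like cells. In goblet-like cells 6 of 13 interferon gamma genes in WT and 8 of 15 in MG53-TG were past 2-fold higher than in stem-like cells, where 14.8% and 16.2% of all genes were, with medians of 0.73 and 1.18. The small interferon-led cluster held 7 Iigp1 UMIs in WT against 8 in the other goblet-like cells, and 67 against 28 in MG53-TG. For Gbp3 it held 26 against 30 in WT and 54 against 70 in MG53-TG, and its part in these counts was not tested. T cell markers were also higher in WT goblet-like than in stem-like cells, at 29.1 against 9.55 CPM, with 4 of 5 past 2-fold higher, whereas they were at 5.10 against 4.19 CPM in MG53-TG, and their part in these values was not tested. Irf1, for example, held 68.0 and 77.6 CPM in goblet-like against 40.8 and 42.0 CPM in stem-like cells, while Ciita was lower in goblet-like cells. In enterocyte-like cells, where the members were higher than in stem-like cells, 3 of 10 and 7 of 11 interferon gamma genes were past 2-fold higher (medians 0.74 and 1.13), where 15.3% and 16.5% of all genes were (medians -0.38 and -0.33).

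Of the transcription genes, which encode the RFX and NF-Y subunits that bind the SXY module and their partners, 0 of 9 were past 2-fold between the libraries, where 1.33% of all genes were higher and 0.822% lower, 6 were above 0 and the median log2 was 0.17 against 0.08 over all genes. Against stem-like cells, 0 of 9 were past 2-fold higher in enterocyte-like cells, where 15.3% of all genes in WT and 16.5% in MG53-TG were, and 3 of 9 in WT and 2 of 9 in MG53-TG were past 2-fold lower, where 32.1% and 31.5% of all genes were, so these counts are near the background. Rfx5 held 2.90 and 2.88 CPM in enterocyte-like and 5.07 and 5.54 CPM in stem-like cells, opposite to the members. Of the antigen-processing genes, 0 of 6 were past 2-fold between the libraries, against the same 1.33% and 0.822% of all genes, and 5 were below 0 (median -0.14 against 0.08), with Ctss, the cathepsin that cleaves the invariant chain, at -0.27 (-0.34 to -0.21) and Ifi30, a lysosomal thiol reductase gene, at -0.24 (-0.27 to -0.21). Ctss followed the members across types, with 123 and 115 CPM in enterocyte-like, 43.5 and 39.7 CPM in stem-like and 6.12 and 4.52 CPM in goblet-like cells, whereas Ifi30 did not, with 243 and 209, 286 and 263, and 142 and 140 CPM.

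Costimulatory genes were near absent. Cd80, Cd86 and Cd40, which professional presenting cells use to activate T cells, came to 5 UMIs or fewer each in the named epithelial cells of either library. The ligand genes Icosl and Cd274 held 1.26 and 1.46 CPM and 0.267 and 0.603 CPM in WT and MG53-TG, and Cd274 was the 1 gene of the 3 testable ones past 2-fold higher, where 1.33% of all genes were (log2 1.17, 0.48 to 1.90). It rested on 27 and 52 UMIs, of which goblet-like cells held 1 in WT and 23 in MG53-TG, 7 of these in the interferon-led cluster. The other class II genes H2-DMb2, H2-Oa and H2-Ob came to 2 UMIs or fewer in either library.

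Across 8 types in both libraries, which share their depth and free RNA within a library, the 10 genes other than the members whose log2(CPM + 1) most resembled the class II sum included Bche, Maoa, Tstd1, Prap1, Slc4a4, H2-T3, Slc7a8, Plbd1 and Retsat, with Pearson r from 0.95 to 0.97 over 16 points, of 5336 genes compared. H2-T3, which encodes the thymus leukemia antigen of intestinal epithelium, was the only MHC gene among these 10, and ranged from 2.22 to 162 CPM. The members' own r ran from 0.91 for H2-DMb1 to 0.99 for Cd74, a sum that contains 4 of them. Ctss reached 0.93, Ifngr2 0.80, Irf1 0.40 and Rfx5 -0.04.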

How the data were processed

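The deposited files held UMI counts per gene and barcode from droplet 3′-end libraries of 2 samples. Per the file headers the WT counts came from Cell Ranger 4 and the MG53-TG counts from Cell Ranger 6.0.1. The submitters' processing notes name mm10 and Seurat, and the counting settings are not given in the sources used here. The WT table held 2005718 barcodes and was unfiltered, whereas the MG53-TG table held 12361. Barcodes past a UMI minimum set earlier at the inflection of the WT barcode rank curve (lowest kept cell, 1355 UMIs), with 200 or more genes and no more than 25% of UMIs from mitochondrial genes were kept, and the top-scoring 0.8% per 1000 cells by Scrublet score were removed as doublets. Counts scaled to 10000 UMIs were clustered in scanpy 1.11.5 on 2716 variable genes, leaving out class II genes and Trim72 (30 components, 15 neighbours, Leiden resolution 1). Of 26 clusters, 20 were named as epithelial types by at least 3 listed markers. Ratios of CPM carry exact conditional binomial intervals, CPM exact Poisson intervals and shares exact Clopper-Pearson intervals. Thinned shares are medians of 20 draws. A gene was counted as past 2-fold only with at least 30 UMIs over the groups compared, and 0.5 UMIs were added to each sum for these counts and medians. The named genes were all members and every gene of 5 pathway lists described by counts, with those furthest from 0 or of known role given values, and the 10 other genes most like the class II sum among those with a mean of at least 20 CPM. The members and lists were chosen with earlier results of these data known. The ratio script was tested on simulated data. Alternatives are given in the closing section. RefSeq promoters were matched by symbol for 4 of the 7 members, and H2-Ea was not analysed here. Values of some listed genes are not reported here.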

Additional observations from a re-analysis of the deposited data

Results flagged for a closer look

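The direction of the MG53-TG to WT difference in the class II sum was not the same in all types. The log2 ratio was 0.14 in stem-like, 0.28 in goblet-like and 0.14 in Paneth-like cells, and -0.0713 in enterocyte-like and -0.20 in enteroendocrine-like cells. The Paneth-like value turned to -0.17 without the 1 cell of each library that held most class II UMIs. With 1 library per genotype the difference between types was not tested.

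Class II UMIs were also counted outside the cells compared. They came to 1314 CPM in WT barcodes with fewer than 100 UMIs, and to 1740 CPM (WT) and 1767 CPM (MG53-TG) barcodes above the mitochondrial limit. The unnamed epithelial cluster led by Saa1 and Slc10a2 held 5206 CPM in WT against 5255 CPM in MG53-TG, above the T cell-like background and above every named cluster.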

How the results depend on the processing

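No paired analysis was possible because each genotype had 1 library, and for the same reason no replicate could be left out. The epithelial log2 ratio of the class II sum, -0.08, was -0.10 with Ptprc-positive cells kept, -0.12 without cells holding any antigen-presenting or T cell marker, -0.11 with the unnamed cluster counted, -0.0631 at Leiden resolution 0.5, -0.17 as the mean of single-cell CPM, -0.16 with median-of-ratios scaling (which moved the median of all genes by 0.08) and -0.10 without the top 1% of cells. It turned to 0.000445 with types weighted equally and to 0.0042 at a mitochondrial limit of 50%, and that of H2-Eb1, -0.14, turned to 0.0382 with types weighted equally. The ratio of Ciita, -0.12, was above 0 in 2 of 12 alternatives. The enterocyte-like over stem-like difference, 1.10 in WT and 0.89 in MG53-TG, was 0.94 and 0.74 at resolution 2, 1.23 and 1.04 as the mean of single-cell CPM, 0.98 and 0.76 without the top 1% of cells, 1.16 and 0.96 at a UMI minimum of 500, and 0.98 and 0.79 at the 50% limit. It was 1.14 in WT without marker-holding cells and 0.92 in MG53-TG with doublets kept. The thinned share differed by -5.89 points, and by -0.444 with types weighted equally, -0.173 at the 50% limit and 1.18 when not thinned. Genes past the fold made up 2.15%, 0.869% at a gene minimum of 100 UMIs and 8.78% at a fold of 1.5. The goblet-like difference turned to -0.0623 with doublets kept. In settings added after seeing the data, the Paneth-like difference, 0.14, turned to -0.17 without the cell of each library that held most class II UMIs, to -0.0767 with Ptprc-positive cells kept and to -0.43 without marker-holding cells. The cause of these moves was not tested. In further such settings, H2-Aa over H2-Ab1 ranged from 0.0912 to 0.211 in WT and from 0.104 to 0.168 in MG53-TG goblet-like cells. At this depth, Ciita in goblet-like, Paneth-like and tuft-like cells rests on 51 UMIs or fewer, and tuft-like values on under 100 UMIs per gene.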
